A study of Mus musculus with 4 samples.

Results

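The Hox cluster genes are the transcription factor genes named Hoxa, Hoxb, Hoxc or Hoxd followed only by a number, and 39 of the 30138 entries of the deposited count table fitted that rule. They comprise 11 Hoxa genes on chromosome 6, 10 Hoxb genes on chromosome 11, 9 Hoxc genes on chromosome 15 and 9 Hoxd genes on chromosome 2. Primary mouse hepatocytes from liver were taken through a stepwise culture toward cells that make insulin, and 1 total RNA library was sequenced from each of 4 stages. Before S0 the cells had grown in 10% fetal bovine serum and high glucose. The S0 cells were in medium with knockout serum in place of fetal bovine serum, with bFGF and EGF, 2 growth factors, each at 20 ng/ml. S1 cells had received the DNA methylation inhibitor 5-azacytidine (5 mM as labelled) for 48 h and then the histone deacetylase inhibitor trichostatin A (100 nM) for 24 h. S2 cells had then spent 7 days with insulin, transferrin and selenium supplement and retinoic acid (2 mM as labelled). S3 cells had then spent 7 days with nicotinamide (10 mM) in medium free of both growth factors. The sources used here give no mouse strain, sex or age, nor how many animals a library holds.

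Hox genes encode homeodomain transcription factors that give cells their position along the body axis. In each cluster the genes are numbered from the 3′ end (paralog group 1) to the 5′ end (paralog group 13), genes of 1 group in different clusters are paralogs, and during development 3′ genes are switched on earlier and nearer the head than 5′ genes. Retinoic acid is a known inducer of 3′ Hox genes, Polycomb complexes keep silent Hox genes closed, and connective tissue cells keep a Hox code of the body region they came from. The RefSeq gene table (GRCm38.p6) held all 39 genes, with 0 other protein-coding genes inside any of the clusters, and the gene order followed the paralog numbers by gene start or by gene end in each cluster.

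Promoter windows from RefSeq (250 bases before to 50 after the gene start, GRCm38.p6) were held for 22 of the 39 genes, in 24 windows. The 3 shown here belong to genes that were highest at different stages, and capitals mark CG dinucleotides, the sites of the cytosine methylation that 5-azacytidine inhibits. They lie at chr6:52260831-52261130 on the minus strand (Hoxa13), chr6:52204538-52204837 on the minus strand (Hoxa5) and chr2:74704365-74704664 on the plus strand (Hoxd8).
Hoxa13: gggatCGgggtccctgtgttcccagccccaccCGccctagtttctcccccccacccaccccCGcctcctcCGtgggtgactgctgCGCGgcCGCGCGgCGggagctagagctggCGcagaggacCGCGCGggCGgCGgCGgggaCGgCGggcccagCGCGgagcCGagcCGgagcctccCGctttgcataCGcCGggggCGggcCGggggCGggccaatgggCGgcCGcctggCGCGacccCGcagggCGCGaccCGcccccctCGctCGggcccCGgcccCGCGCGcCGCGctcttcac
Hoxa5: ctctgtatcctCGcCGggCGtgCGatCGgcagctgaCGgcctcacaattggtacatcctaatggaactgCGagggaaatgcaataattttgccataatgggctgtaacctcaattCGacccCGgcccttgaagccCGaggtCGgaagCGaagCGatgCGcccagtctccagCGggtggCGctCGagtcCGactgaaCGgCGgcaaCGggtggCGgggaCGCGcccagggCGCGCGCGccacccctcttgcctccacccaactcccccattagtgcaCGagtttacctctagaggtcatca
Hoxd8: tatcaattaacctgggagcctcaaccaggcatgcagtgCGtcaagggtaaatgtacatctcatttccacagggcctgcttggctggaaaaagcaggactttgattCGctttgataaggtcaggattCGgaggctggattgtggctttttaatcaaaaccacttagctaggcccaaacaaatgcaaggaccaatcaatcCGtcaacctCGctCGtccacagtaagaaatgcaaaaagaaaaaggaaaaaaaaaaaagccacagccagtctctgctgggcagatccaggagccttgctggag
The Hoxa13 window held 45 CG dinucleotides, more than 98.1% of all 32851 promoter windows. The Hoxa5 window held 29 and the Hoxd8 window 6, against a median of 14.5 over the Hox windows and 7 over all windows. Direct repeats of the retinoic acid receptor hexamer AGGTCA, or of its variants with AGTTCA, with GGGTCA and with GGTTCA, on either strand, with a spacer of 1, 2 or 5 bases, were found in 0 of the 24 Hox windows and in 0.222%, 0.268% and 0.0974% of all windows. A lone hexamer was found in 11 of the 24 (45.8%), the Hoxa5 and Hoxd8 windows among them, and in 43.7% of all windows. These counts describe letters in short windows only.

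Levels are given as reads and as CPM (reads scaled to library size with TMM factors), and parentheses beside a fold hold the exact 95% Clopper-Pearson interval of the counts. Libraries held 22944047 to 27602967 reads in genes, so that 3 reads, the limit that a count of 0 allows, correspond to 0.103 to 0.137 CPM. The rule for a higher or lower gene was that this whole interval lay beyond 2-fold. With 1 library per stage no difference has a replicate check, none was tested, and a difference between stages cannot be told apart from one between cultures. In bulk RNA, fewer cells of a type and less RNA per cell cannot be told apart either. The markers of other cells changed across the same stages. The summed level of 10 macrophage and Kupffer cell markers was 13095, 3285, 695 and 669 CPM from S0 to S3. The 10 stellate cell and fibroblast markers summed to 1813, 1056, 1501 and 2870 CPM, and the 7 mesothelial markers to 1223, 1540, 2291 and 2160 CPM. The 10 hepatocyte markers summed to 3715, 4090, 12133 and 6442 CPM. Among these, albumin (Alb) stood at 234 CPM in S0, the mature hepatocyte gene Tat had 0 reads at every stage, and Cyp2e1 had 1 or 2 reads. The smooth muscle list of 5 genes summed to 7151, 1119, 428 and 806 CPM, the 7 endothelial markers to 35.4, 16.3, 5.97 and 7.0 CPM and the 6 biliary markers to 1568, 1568, 582 and 595 CPM. The part of any of these cells in the Hox values was not tested.

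Hox transcripts were scarce in the starting culture and more abundant at every later stage. The 39 genes together had 670, 1511, 2680 and 2122 reads from S0 to S3, which is 25.1, 52.0, 122 and 90.6 CPM. At least 1 read was found for 26, 36, 31 and 30 of the 39 genes at these stages, and only Hoxb1 had 0 reads at all 4 stages. Of the 39, 21 reached 1 CPM in at least 1 library, 8 of 11 in Hoxa, 7 of 10 in Hoxb, 4 of 9 in Hoxc and 2 of 9 in Hoxd. The other 18 had at most 4 reads each in S0 (Hoxb5), at most 24 in S1 (Hoxa9), 12 in S2 (Hoxb5) and 20 in S3 (Hoxc8), and 13, 143, 57 and 69 reads in sum. By position, 12 of the 16 genes of groups 9 to 13 had their highest level in S1, while 9 of the 11 genes of groups 5 to 8 were highest in S3 and 6 of the 12 genes of groups 1 to 4 were highest in S2, several of them by less than counting error.

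**Figure D1:**
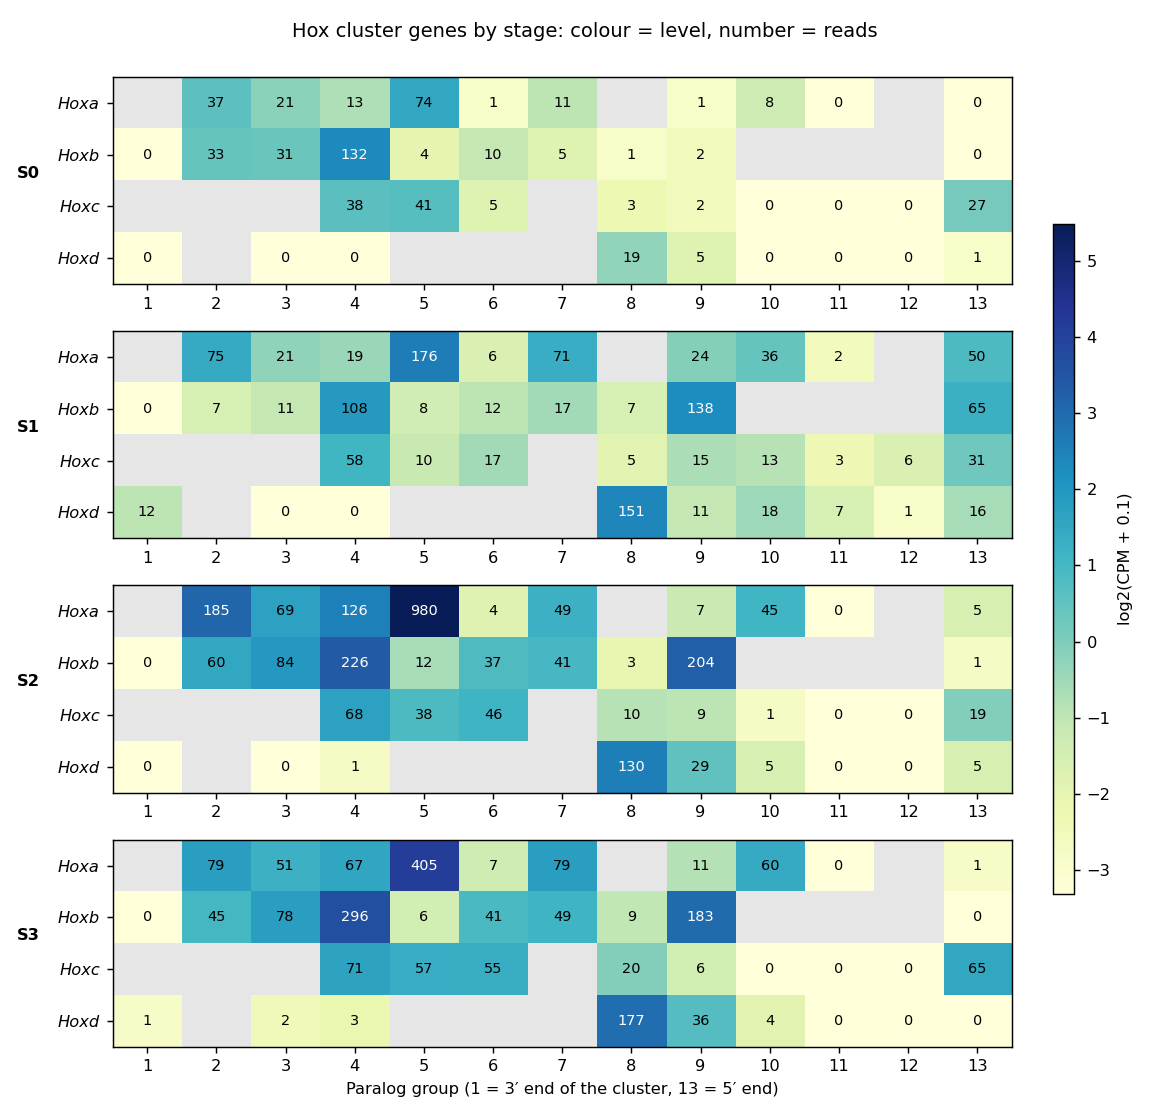
Level of Hox genes at the 4 stages (S0 to S3, 1 library each), with paralog group on the x axis, cluster on the y axis, colour as log2(CPM + 0.1), reads as numbers and grey for positions with no gene or with a gene not shown. Some 5′ genes at the right, such as Hoxb13 with 0, 65, 1 and 0 reads, are seen mainly in S1. Others are not, such as Hoxb9 with 2, 138, 204 and 183 reads and Hoxc13 with 27, 31, 19 and 65 reads. Hoxa5, with 74, 176, 980 and 405 reads, is the most abundant in S2 and S3.

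Per kilobase, on the authors' RPKM scale (reads scaled to gene length and to library size), the order of the members changed between stages. In S0 the level of Hoxb4 (0.676 RPKM) was above that of Hoxa5 (0.518 RPKM). In S1 Hoxa5 (1.27 RPKM) was above Hoxd8 (0.779 RPKM) and Hoxb9 (0.729 RPKM), neither of which was among the first 6 in S0. In S2 Hoxa5 led with 8.29 RPKM, ahead of Hoxa2 with 1.65 RPKM and Hoxb4 with 1.4 RPKM. In S3 Hoxa5 led again with 3.27 RPKM, ahead of Hoxb4 with 1.75 RPKM and Hoxb9 with 1.08 RPKM.

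The first comparison, S1 over S0, spans the treatment with both chromatin-acting inhibitors. Hoxb9, Hoxb13 and Hoxa13 of the 5′ end and Hoxd8 and Hoxa7 of the middle were higher in S1, and Hoxb2 and Hoxc5 were lower. These are 5 higher and 2 lower of the 21 Hox genes with at least 1 CPM in a library, where 12.6% of the 15222 such genes in all were higher and 13.1% lower. The other 18 of the 39 were below this filter, and the counts over the 21 are a description, since a gene can pass it through the library where it is high. Without TMM factors these counts were 6 and 0, with 15.2% and 10.7% of all genes, and the median of all genes moved by 0.17 on the log2 scale. With every gene that had a read, 10 of the 39 Hox genes were higher, against 9.5% of 23618 genes, and 2 were lower, against 8.86%. The 5 added by this were Hoxa9, Hoxc10, Hoxd1, Hoxd10 and Hoxd13.

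Hoxb9, which in mice helps to set the identity of the thoracic ribs, had 2, 138, 204 and 183 reads from S0 to S3. It was low in S0 alone, at 0.0749 CPM against 4.75 to 9.29 CPM later, and the S1 level was 63.5-fold that of S0 (17.2 to 529). Hoxd8, a gene of trunk patterning, had 19, 151, 130 and 177 reads, and was 7.31-fold higher in S1 (4.52 to 12.5). Hoxa7 had 11, 71, 49 and 79 reads, and was 5.94-fold higher in S1 (3.13 to 12.4). All 3 genes, of groups 7 to 9, were low in S0 alone.

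The 2 genes of group 13 that were counted as higher were high in S1 alone. Hoxb13, known from the prostate and the tail end of the body axis, had 0, 65, 1 and 0 reads, so that S1 was at least 19.9-fold above S0. Hoxa13, needed for digits, hindgut and urogenital tract, had 0, 50, 5 and 1 reads, and was at least 15.3-fold higher in S1. Both reached 1 CPM only in S1, so their direction was fixed by the filter. Hoxd13, with 1, 16, 5 and 0 reads, stayed below 1 CPM and had a ratio of 14.7 in S1 (2.29 to 617). Hoxc13, a gene of hair and nail formation, was the exception among the group, with 27, 31, 19 and 65 reads and 1.06-fold the S0 level in S1 (0.61 to 1.84).

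Most of the other 5′ genes were first seen in S1. Reads were found for 7 of the 16 genes of groups 9 to 13 in S0, all 16 in S1, 11 in S2 and 8 in S3. Hoxa9 had 1, 24, 7 and 11 reads, Hoxd10 had 0, 18, 5 and 4 reads, Hoxc10 had 0, 13, 1 and 0 reads and Hoxc9 had 2, 15, 9 and 6 reads. The genes of groups 11 and 12 had 1 to 7 reads in S1 and 0 at the other stages. Of the 13 Hox genes with 0 reads in S0, 10 had a read in S1 and 7 had more than 3. Over all 5288 protein-coding genes with 0 reads in S0, 24.8% had a read in S1 and 10.0% more than 3. In S3, 1 of the 13, Hoxd10, had more than 3 reads, against 4.14% of the same genes. All 8 neural markers were also higher in S1 over S0, where 12.6% of all genes were. They summed to 10.5, 196, 13.2 and 23 CPM, with no marker at 0 reads. In S2 over S1 all 8 were lower, where 10.1% of all genes were. Groups 9 to 13 together stood at 15.0 CPM at both stages, but without Hoxb9 their log2 ratio was -0.84. Of their 16 genes, 12 were highest in S1. Whether the same cells held the neural and the 5′ Hox transcripts was not tested.

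At the 3′ side of Hoxb the levels were lower in S1. Hoxb2, a hindbrain patterning gene, had 33, 7, 60 and 45 reads and was 5.12-fold lower in S1 (2.23 to 13.7). Hoxb3 had 31, 11, 84 and 78 reads with a ratio of 3.06-fold in the same direction (1.5 to 6.76), which did not meet the rule. Hoxb4, known for its action on blood stem cells, had 132, 108, 226 and 296 reads, 1.33-fold less in S1 (1.02 to 1.73). Hoxc5, with 41, 10, 38 and 57 reads, was 4.46-fold lower (2.2 to 9.98). The calls for Hoxb2 and Hoxc5 were lost without TMM factors and with a 99% interval. In contrast, Hoxa5 was 2.19-fold above S0 in S1 (1.66 to 2.91), without meeting the rule.

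In Hoxa and Hoxb the ratio of S1 over S0 was larger toward the 5′ end. Across the genes with a ratio, all points share the same 2 libraries and 0 counts stand at their bounds. A gene with at most 3 reads in S0 has a ratio only with more than 3 in S1, which fixes its direction upward. As a description with these limits, Spearman's rho of paralog number with the log2 ratio was 0.57 over 33 genes. Within clusters it was 0.97 over 9 Hoxb genes, 0.81 over 10 Hoxa genes, 0.24 over 8 Hoxc genes and 0.26 over 6 Hoxd genes. Groups 9 to 13 summed to 46 reads in S0 and 436 in S1, an 8.72-fold difference (6.43 to 12.1) or 2.64 on the log2 scale without Hoxb9. Groups 5 to 8 summed to 174 and 480 reads, a 2.54-fold difference (2.13 to 3.04), and groups 1 to 4 to 450 and 595 reads, a 1.22-fold difference (1.07 to 1.38). With classes chosen after seeing the data, groups 6 to 9 had a log2 ratio of 2.75 and groups 10 to 13 one of 2.66, so the sums did not increase further within the 5′ part.

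**Figure D2:**
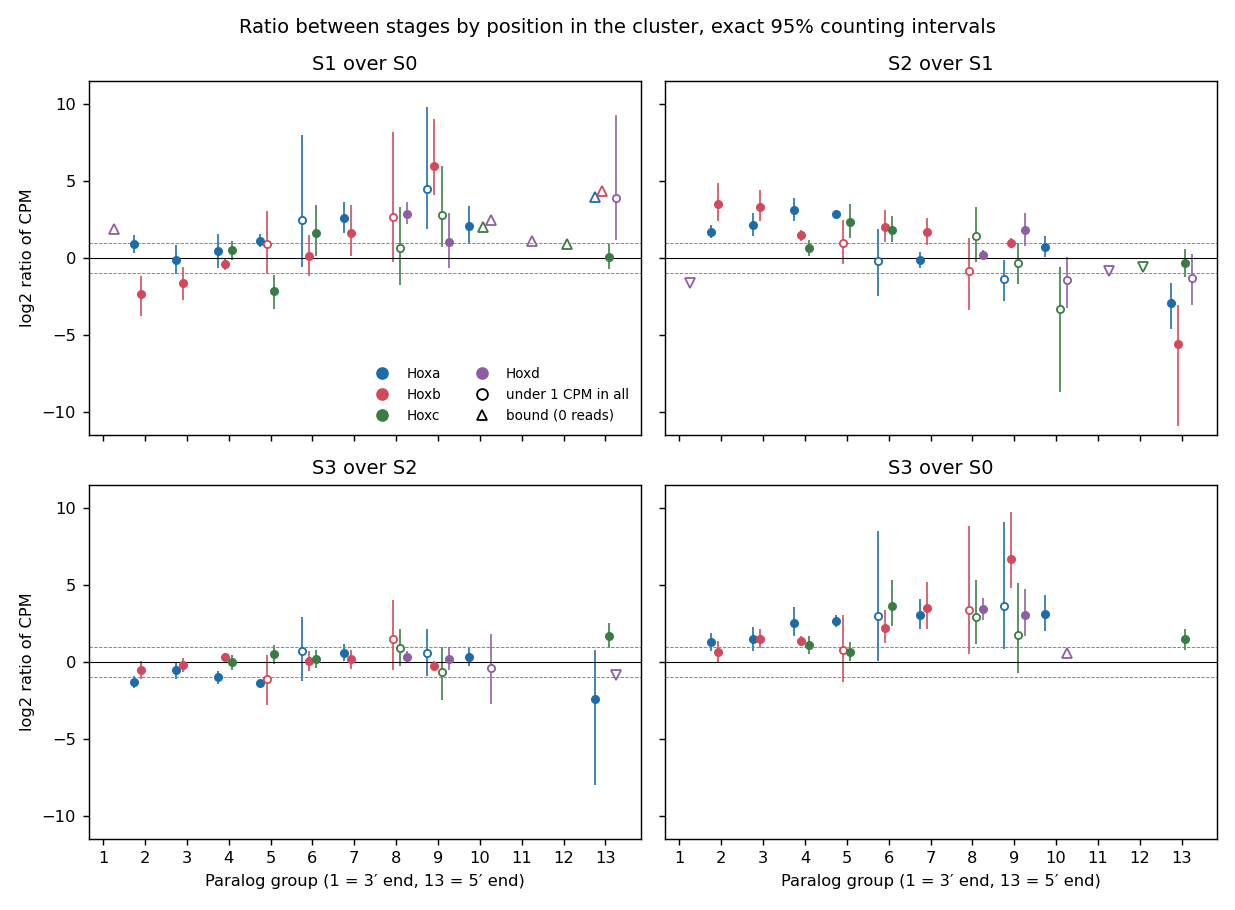
The log2 ratio of CPM between stages (y axis) for Hox genes by paralog group (x axis), coloured by cluster, with exact 95% counting intervals, open circles for genes under 1 CPM in all libraries, open triangles for bounds where 1 library had 0 reads, and dashed lines at 2-fold. In S1 over S0 most ratios lie higher at the right. In S2 over S1 most lie higher at the left and lower at groups 10 to 13. Against this, Hoxa10 (36 and 45 reads) was higher in S2 and Hoxd1 (12 and 0 reads) was lower. A gene with at most 3 reads in 1 library is shown only with more than 3 in the other, which fixes its direction.

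The treatment with retinoic acid and with the insulin, transferrin and selenium supplement lies between S1 and S2. The genes counted as higher in S2 were Hoxa2 to Hoxa5, Hoxb2, Hoxb3, Hoxb4, Hoxb6, Hoxc5 and Hoxc6, and those counted as lower were Hoxa13 and Hoxb13. These are 10 higher of the 21 genes with 1 CPM, where 6.71% of all genes tested were higher, and 2 lower, where 10.1% were lower. With every gene that had a read the counts were 10 and 3 of the 39, against 4.55% and 7.26%, and the added lower gene was Hoxd1, with 12 reads in S1 and 0 in S2. Groups 1 to 4 held 6 of the higher genes and groups 5 to 8 the other 4, with 0 in groups 9 to 13, and Hoxa, Hoxb, Hoxc and Hoxd held 4, 4, 2 and 0.

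Hoxa5, which in mice patterns the neck vertebrae and the airways and is induced by retinoic acid, had 74, 176, 980 and 405 reads, or 2.77, 6.06, 44.6 and 17.3 CPM, and was 7.36-fold higher in S2 than in S1 (6.26 to 8.69). It supplied 36.6% of all Hox reads of S2. Its neighbour Hoxa4, with 13, 19, 126 and 67 reads, was 8.77-fold higher in S2 than in S1 (5.39 to 15.0). Hoxa3, needed for thymus and parathyroid formation, had 21, 21, 69 and 51 reads and was 4.34-fold higher (2.63 to 7.46). Hoxa2, which patterns the second pharyngeal arch, had 37, 75, 185 and 79 reads and was 3.26-fold higher (2.48 to 4.32). Hoxa2 to Hoxa5 thus formed a run of 4 adjacent genes that were higher in S2. In RefSeq Hoxa3 overlaps Hoxa4 and Hoxa5, so their counts may share reads and may not be separate results.

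In Hoxb, 4 genes were higher in S2. Hoxb2 was 11.3-fold higher in S2 than in S1 (5.18 to 29.4) and Hoxb3 10.1-fold (5.36 to 21.0). Both ratios use the S1 library, where these genes were low, and from S0 to S2 their levels went from 1.24 to 2.73 CPM and from 1.16 to 3.82 CPM. Hoxb4 was 2.77-fold higher (2.19 to 3.51) and Hoxb6, with 10, 12, 37 and 41 reads, 4.08-fold (2.08 to 8.59). Without TMM factors neither of these last calls held, and that of Hoxb6 was also lost with a 99% interval. Hoxb9 was 1.95-fold above S1 (1.57 to 2.44) and did not meet the rule. Hoxb1, a classical retinoic acid target of the mouse hindbrain, had 0 reads in S2 as at every stage, which allows up to 0.137 CPM there.

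In Hoxc, 2 of the 4 genes with 1 CPM were higher, and in Hoxd 0 of 2. Hoxc5 was 5.02-fold higher in S2 (2.46 to 11.3), and Hoxc6, with 5, 17, 46 and 55 reads, 3.58-fold (2.01 to 6.66), a call that was lost without TMM factors, with DESeq2 size factors and with a 99% interval. Hoxd8 differed little, at 5.2 CPM in S1 and 5.92 CPM in S2, and Hoxd9 had 5, 11, 29 and 36 reads, with a ratio of 3.49-fold (1.69 to 7.73). Hoxd3 and Hoxd4, paralogs of the higher Hoxa and Hoxb genes, had 0 and 1 reads in S2. Genes of the same paralog group thus had unlike levels in S2, where group 4 stood at 10.3 CPM for Hoxb4, 5.74 CPM for Hoxa4, 3.1 CPM for Hoxc4 and 0.0455 CPM for Hoxd4.

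Both lower genes reached 1 CPM in S1 alone, so that their direction was fixed by the filter. Hoxb13 was 49.2-fold lower in S2 than in S1 (8.52 to 1971, with 1 read in S2) and Hoxa13 7.56-fold (3.03 to 24.3), and both ratios rest on the S1 library that also gave the ratio over S0. Groups 9 to 13 together stood at 15.0 CPM at both stages. Hoxb9 made up 31.7% of their reads in S1 and 61.8% in S2, and without Hoxb9 their log2 ratio was -0.84. A gene with at most 3 reads in S2 has a ratio over S1 only with more than 3 in S1, which fixes its direction downward. With this limit, Spearman's rho of paralog number with the log2 ratio, across 33 genes as a description, was -0.62. It was -0.85 over 9 Hoxb genes, -0.69 over 8 Hoxc genes, -0.45 over 10 Hoxa genes and 0.09 over 6 Hoxd genes.

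**Figure D3:**
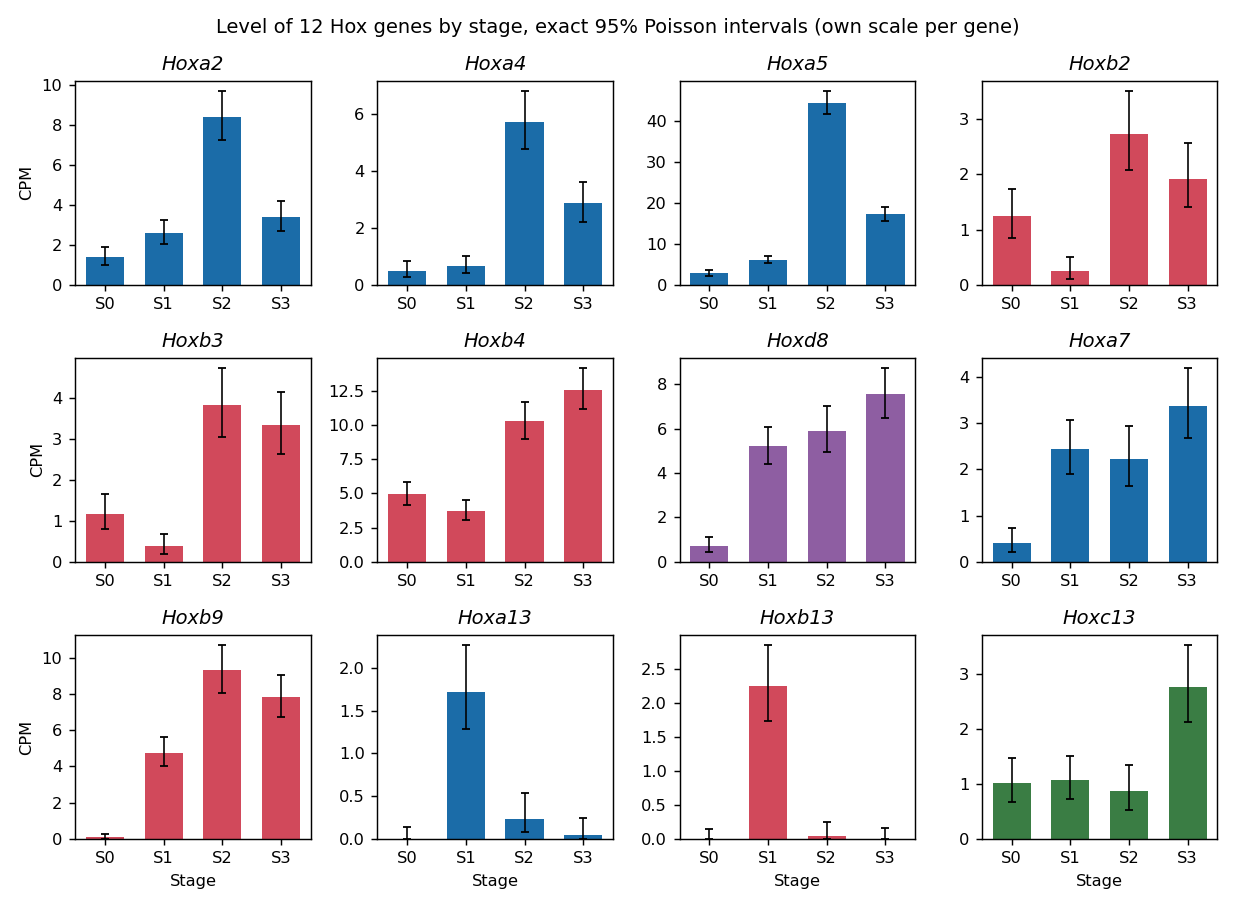
Level in CPM (y axis, own scale per gene, from 0) of 12 Hox genes at stages S0 to S3 (x axis), with bars for the single library of each stage and exact 95% Poisson intervals for counting error. Hoxa4 and Hoxa5 peak in S2, Hoxa7, Hoxd8 and Hoxb9 stay above S0 from S1 on, Hoxa13 and Hoxb13 are seen mainly in S1, and Hoxc13 is highest in S3.

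Between S2 and S3 lies the step with nicotinamide, in medium free of bFGF and EGF and with no retinoic acid labelled. The parts of this step cannot be told apart. The 21 genes with 1 CPM had a median log2 ratio of 0.01, as had all genes tested. Among these 21 genes 0 were higher, where 3.69% of all genes tested were higher, and 1 was lower, Hoxa5, where 1.14% were lower. Hoxa5 was 2.58-fold lower in S3 (2.3 to 2.91). Hoxa2 and Hoxa4 differed in the same direction without meeting the rule, at 2.5-fold (1.91 to 3.29) and 2.01-fold (1.48 to 2.74). The Hoxa cluster as a whole was 1.92-fold below its S2 level (1.77 to 2.08), or -0.48 on the log2 scale without Hoxa5. Hoxb, with 668 and 707 reads, stood at 30.4 and 30.2 CPM. Hoxc13 had the largest ratio upward among the genes with over 1 CPM, 3.21-fold (1.9 to 5.66).

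Over the whole protocol, S3 over S0, members of all 4 clusters were higher and none was lower. Of the 21 genes with 1 CPM, 11 were counted as higher, where 9.2% of all genes tested were higher, and 0 as lower, where 10.5% were lower. With every gene that had a read, 12 of the 39 were higher, against 6.33%, and 0 lower, against 7.19%, the added gene being Hoxc8 (3 and 20 reads). Groups 5 to 8 held 6 of these 11, groups 9 to 13 held 3 and groups 1 to 4 held 2, and by cluster the counts were 4 in Hoxa, 4 in Hoxb, 1 in Hoxc and 2 in Hoxd. The largest ratio was that of Hoxb9, 104-fold (28.5 to 868, with 2 reads in S0).

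The other 10 lay between 2.56-fold (2.08 to 3.16) for Hoxb4 and 12.5-fold (5.06 to 40.2) for Hoxc6. Hoxb7, with 5, 17, 41 and 49 reads, was 11.2-fold higher (4.48 to 35.9), Hoxd8 10.6-fold (6.6 to 18.1), and Hoxa10, a gene of lumbar vertebrae and uterus with 8, 36, 45 and 60 reads, 8.55-fold (4.07 to 20.7). Hoxd9 was 8.21-fold higher (3.21 to 26.8), Hoxa7 8.19-fold (4.34 to 17.1), Hoxa5 6.24-fold (4.86 to 8.11) and Hoxa4 5.88-fold (3.21 to 11.6). Hoxb6 was 4.68-fold higher (2.3 to 10.5), and with a 99% interval its call and that of Hoxb4 were lost. Hoxc4, with 38, 58, 68 and 71 reads, was 2.13-fold above S0 (1.42 to 3.25) and did not meet the rule. Of the members below 1 CPM in every library, Hoxa6 had 1, 6, 4 and 7 reads, Hoxb5 had 4, 8, 12 and 6 reads and Hoxb8 had 1, 7, 3 and 9 reads. As a description, the rho of paralog number with the log2 ratio was 0.52 across the 26 genes with a ratio, 0.98 across 9 Hoxa genes, 0.88 across 8 Hoxb genes and 0.37 across 6 Hoxc genes. Genes with at most 3 reads at both stages have no ratio and are not in these values. In groups 9 to 13 these are Hoxa11, Hoxa13, Hoxb13, Hoxc10, Hoxc11, Hoxc12, Hoxd11, Hoxd12 and Hoxd13, with 0 or 1 reads. In groups 1 to 4 they are Hoxb1, Hoxd1, Hoxd3 and Hoxd4. A gene with at most 3 reads in S0 thus entered only with more than 3 in S3, which fixes its direction upward. Markers of several cell types also differed in S3 over S0, where 9.2% of all genes tested were higher and 10.5% lower. Of 10 stellate cell and fibroblast markers, 6 were higher and 2 lower. Of 7 mesothelial markers, 4 were higher and 1 lower, and of 8 hepatocyte markers tested, 4 and 0. All 10 macrophage and all 5 smooth muscle markers were lower. Endothelial markers had 0 higher and 3 lower of 7, biliary markers 1 and 2 of 6, and neural markers 1 and 0 of 8. The part of these cells in the Hox levels was not tested.

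The clusters held different shares of the Hox reads at each stage, a measure that library scaling does not touch. Hoxa held 46.4% of the reads in S0 (42.6 to 50.3, exact binomial interval), 50.6% in S1, 61.6% in S2 (59.7 to 63.5) and 43.3% in S3. Hoxb held 32.5%, 24.7%, 24.9% and 33.3%, and Hoxc 17.3%, 10.5%, 7.13% and 12.9%. Hoxd held 3.73% in S0 (2.43 to 5.46) and 14.3% in S1 (12.6 to 16.2), followed by 6.34% and 10.5%, and Hoxd8 alone made up 69.9% to 79.4% of its reads. In level, Hoxd was 7.95-fold higher in S1 than in S0 (5.24 to 12.6), where the ratio was 2.26-fold for Hoxa (1.98 to 2.59), 1.57-fold for Hoxb (1.33 to 1.87) and 1.25-fold for Hoxc (0.98 to 1.61). In S2 over S1 Hoxd had the smallest ratio, with 2.86-fold for Hoxa (2.62 to 3.12), 2.37-fold for Hoxb (2.08 to 2.69), 1.6-fold for Hoxc (1.29 to 1.99) and 1.04-fold for Hoxd (0.846 to 1.28). Without Hoxa5 the Hoxa ratio in S2 over S1 was 0.59 on the log2 scale, against 1.51 with it. Without Hoxb4 the Hoxb ratio in S1 over S0 was 1.5 on the log2 scale, against 0.65 with it.

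**Figure D4:**
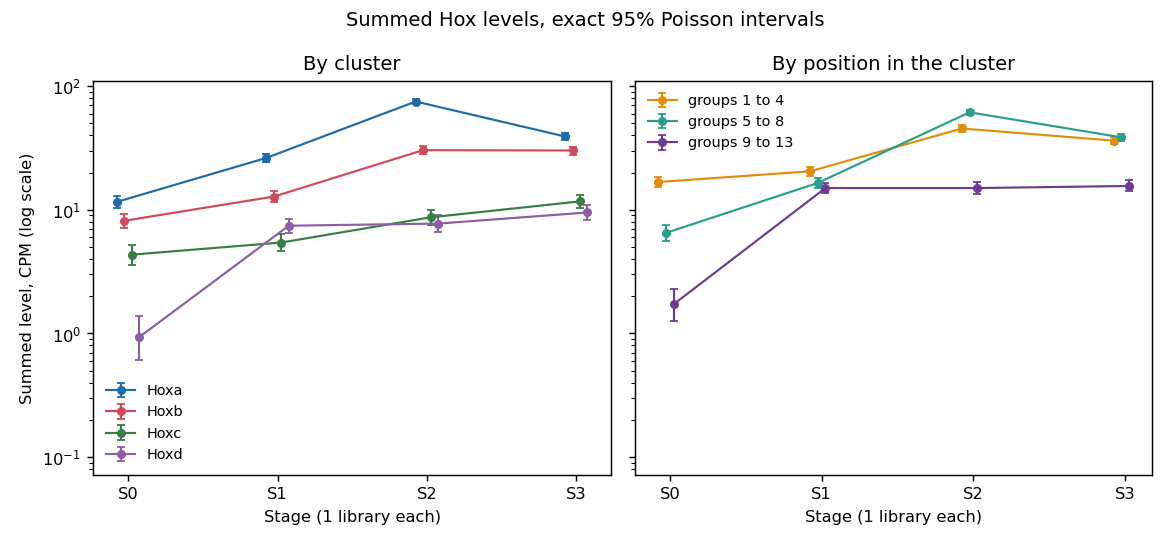
Summed level in CPM (log scale, y axis) of the Hox genes at stages S0 to S3 (x axis), by cluster at left and by paralog groups at right, with exact 95% Poisson intervals and 1 library per stage. Hoxd and groups 9 to 13 step up between S0 and S1, and Hoxa and groups 5 to 8 peak in S2, the latter only with Hoxa5, without which their log2 ratio of S3 over S2 is 0.34 and not -0.67.

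Of the non-coding RNAs inside the clusters, 2 antisense RNAs of Hoxa were higher in S2. Of 18 listed, 10 were in the count table and 4 of these reached 1 CPM. In S1 over S0, 0 of the 4 were higher or lower, against 12.6% and 13.1% of all genes. In S3 over S2 the counts were also 0, against 3.69% and 1.14%. In S2 over S1, 2 were higher and 0 lower, against 6.71% and 10.1%. In S3 over S0 the counts were again 2 and 0, against 9.2% and 10.5%. Hoxaas2 had 12, 17, 92 and 46 reads and was 7.16-fold higher in S2 (4.23 to 12.8), and Hoxaas3 had 9, 19, 55 and 36 reads and was 3.83-fold higher (2.24 to 6.83). Hotairm1 had 37, 87, 98 and 60 reads. Hottip and Hotair, known from the 5′ side of Hoxa and from Hoxc, had 0 reads at every stage, and Haglr of the Hoxd cluster had 0, 6, 1 and 1 reads. The sources used here do not say whether counting used the strand, so reads of these RNAs and of the Hox genes they overlap cannot be told apart. In RefSeq, 20 of the 39 Hox genes overlap another gene and 10 overlap another Hox gene, Hoxa3 with Hoxa4, Hoxa5 and Hoxa6 among them.

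Of 19 listed genes beside the clusters, 17 were in the count table and 13 of these reached 1 CPM. In S1 over S0, 2 of the 13 were higher (Nfe2l3, 4.22-fold, 3.55 to 5.04, and Calcoco1, 2.44-fold, 2.29 to 2.61), where 12.6% of all genes were. Cbx5 alone was lower (2.28-fold, 2.19 to 2.37), where 13.1% were. In S2 over S1, 0 of the 13 passed in either direction, where 6.71% and 10.1% of all genes did. Their medians were -0.06 and 0.19 on the log2 scale, where those of all genes were -0.03 and 0.01. Evx1, the homeobox gene beyond Hoxa13, had 0 reads at all stages, and Evx2, beyond Hoxd13, had 1 read in S1 and 0 elsewhere. Mtx2, beside Hoxd1, had 1172, 1855, 1410 and 1600 reads.

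The cofactors that bind DNA with Hox proteins were present throughout. All 9 listed TALE homeodomain genes were measured, and in S1 over S0 2 were higher, against 12.6% of all genes, and 0 lower, against 13.1%. These were Pknox2, with 16, 173, 30 and 31 reads (9.95-fold, 5.95 to 17.8), and Pbx4, with 40, 197, 60 and 74 reads (4.53-fold, 3.21 to 6.54). In S2 over S1 1 was lower, Pknox2 (4.36-fold, 2.95 to 6.66), against 10.1% of all genes, and 0 were higher, against 6.71%. Meis1 stayed between 27.6 and 35.3 CPM. The caudal gene Cdx2, an activator of Hox genes in the embryo, had 118, 119, 114 and 60 reads, Cdx1 had 0 at all stages and Cdx4 had 2 in S3 alone.

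For the lists of chromatin regulators, the shares of all genes to set beside the counts were 12.6% higher and 13.1% lower in S1 over S0. They were 6.71% and 10.1% in S2 over S1, 3.69% and 1.14% in S3 over S2, and 9.2% and 10.5% in S3 over S0. Of 11 measured genes of Polycomb repressive complex 2, which marks silent Hox genes, 1 was lower and 0 were higher in S1 over S0, namely Phf19 with 409, 27, 15 and 27 reads (16.5-fold, 11.2 to 25.3). The methyltransferase gene Ezh2 stood at 45.5, 24.3, 15.6 and 18.5 CPM and was 2.46-fold lower in S3 than in S0 (2.2 to 2.75). Of 19 genes of Polycomb repressive complex 1, 1 was higher in S1 (Cbx7, 3.32-fold, 2.76 to 4.02), and in S2 over S1 Bmi1 was 2.74-fold higher (2.5 to 3.0) and Cbx2 2.88-fold lower (2.34 to 3.57). Of 11 trithorax and H3K27 demethylase genes, which counteract Polycomb, 1 was lower in S1, Kmt2b (2.99-fold, 2.64 to 3.38), and 0 passed in S2 over S1 or S3 over S2. The medians of these 3 lists in S1 over S0 were -0.18, 0.15 and -0.37 on the log2 scale, beside -0.03 for all genes tested.

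Among retinoic acid receptors, enzymes and targets, members differed in both directions. Of 15 measured, 6 were higher and 3 lower in S2 over S1, against 6.71% and 10.1% of all genes, with a median of 1.04 on the log2 scale beside 0.01 for all genes. In S1 over S0 the counts were 4 higher and 2 lower, against 12.6% and 13.1%, and in S3 over S0 7 higher and 0 lower, against 9.2% and 10.5%. Cyp26a1, which degrades retinoic acid, had 0, 1, 320 and 48 reads. Rarb, a receptor that retinoic acid induces, stood at 13.9, 16.9, 102 and 54.7 CPM, and was 6.02-fold higher in S2 (5.46 to 6.65). The 3 lower members were Aldh1a2 and Aldh1a3, enzymes that make retinoic acid, 10.7-fold (7.69 to 15.3) and 12.1-fold (7.89 to 19.6), and the binding protein gene Crabp1, with 129 reads in S1 and 0 in S2. In S3 Cyp26a1 was 7.11-fold lower than in S2 (5.24 to 9.84), beside 2.58-fold for Hoxa5. Of the 15 measured, 1 was higher and 1 lower in S3 over S2, against 3.69% and 1.14% of all genes. Their median log2 ratio there was 0.12, so the list as a whole was not lower.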

How the data were processed

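Total RNA of cultured primary mouse hepatocytes was sequenced at 4 stages with 1 library each. Trizol extraction and a stranded SMARTer total RNA kit for Illumina sequencing were used, per the labels' protocols. The build mm9 and the tool bcl2fastq are named, per the submitters' processing notes. The aligner, counting program, annotation and strand setting were not given in the sources used here, so reads shared by overlapping genes or similar paralogs could be split in ways not known. The authors deposited whole-number read counts per gene and, per the file headers, RPKM values. The deposited RPKM rests on the same reads: count over RPKM was constant between libraries up to 1 factor per library within 1% for all genes with at least 200 reads in every library.

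Counts were scaled with TMM factors (0.9677, 1.089, 0.9571 and 0.9912 for S0 to S3) from edgeR 4.0.16 in R 4.3.3. Other computations used Python 3.11.15, scipy 1.17.1, pandas 2.3.3 and numpy 2.4.6, and matplotlib 3.10.9 for figures. DESeq2 1.42.0 gave alternative size factors. The fold and its interval were computed for all genes with reads. The main counts of higher and lower genes used those that reached 1 CPM in any library (15222 of 30138 entries). The interval code was tested on simulated data. A count of 0 was set against a floor of 3 reads per library for the fold, written as "at least", and pairs of libraries with at most 3 reads each got no fold. Intervals and floors cover counting error only. Reads without molecular identifiers are not independent molecules, so the intervals may be too narrow even for that error. No p-value was computed, because 1 library per stage gives no spread between cultures. Each stage was compared with the stage before it and S3 also with S0, so that comparisons share libraries. The 39 genes, the gene lists and the rules were chosen with earlier results of these data known. All 39 genes enter the counts and sums, though some genes of the lists are not reported here by name. Members counted as higher or lower were named in full, at most 8 per direction by the bound nearest to no change, with further members given for their cluster or position. Motifs and CG counts came from RefSeq promoter windows, a build other than that of the counts.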

Additional observations from a re-analysis of the deposited data

How the results depend on the processing

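The counts of Hox genes beyond 2-fold were recomputed under 8 alternatives. In S1 over S0, 10 genes were higher with no filter on low counts (9.5% of all genes) and 12 by the ratio of RPKM with no interval (20.7%), against 5 (12.6%), and 0 were lower with library size scaling only, with a 4-fold limit and with a 99% interval, against 2 (10.7%, 4.89% and 11.9% of all genes, against 13.1%). In S2 over S1 a 4-fold limit left 4 higher genes of 10 (1.18% of all genes) and 1 lower of 2 (3.49%). In S3 over S2, 1 gene was higher with a limit of 1.5-fold, by log2(CPM + 0.5) with no interval and by RPKM, against 0 (7.29%, 5.43% and 8.77%, against 3.69%). There, 2 genes were lower with 1.5-fold, 2 by log2(CPM + 0.5), 4 by RPKM and 0 with 4-fold, against 1 (3.36%, 2.15%, 4.69% and 0.138%, against 1.14%). In S3 over S0, 7 were higher with 4-fold (3.19%) and 17 by RPKM (15.5%), against 11 (9.2%). DESeq2 size factors moved none of the 8 counts by over 1.5 times. Scaling by library size alone moved the median of all genes by 0.17 in S1 over S0 and by -0.19 in S2 over S1 on the log2 scale.

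For single members, 403 alternative values gave 0 reversals of a call, 12 lost calls and 29 gained ones. Ratios without a call could change sign, as for Hoxa3 in S1 over S0. Its log2 ratio was -0.12, and 0.05 with scaling by library size only. Of 96 alternative values of the cluster and position sums, 31 lay outside the counting interval of the main value and 0 of the called ones changed sign. Position classes of 1 to 5, 6 to 9 and 10 to 13, chosen after seeing the data, gave log2 ratios of 0.35, 2.75 and 2.66 in S1 over S0 and of 1.77, 0.67 and -1.21 in S2 over S1. No paired analysis was possible because each stage has 1 library. For the same reason no library could be left out. Depth limits the 18 genes below 1 CPM, where 1 to 3 reads decide whether a gene is seen.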
